A study of Mus musculus with 2 samples.

Results

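Hmgcs1, Fdps, Idi1, Fdft1, Sqle, Cyp51 and Dhcr7 encode 7 enzymes of the pathway that builds cholesterol from acetyl-CoA. They were chosen by name, and their unique molecular identifiers (UMIs, 1 for each captured RNA molecule) were read from both deposited single-cell matrices. All 7 were among the 55450 genes of those tables. Each gene had UMIs in all 7 cell classes of both libraries.

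Cholesterol enters the brain poorly from blood, so brain cells make most of their own. Mevalonate pathway enzymes make isoprenoid units, which are joined into squalene, closed into a ring and trimmed to cholesterol. Oligodendrocytes need large amounts of it for myelin, and astrocytes supply neurons with it. SREBP2, the product of Srebf2, is the transcription factor that switches on most of these genes when a cell is low in sterol.

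The data were 1 Control library and 1 WMI (cerebral white matter injury) library of 10x Genomics single-cell RNA-seq from cerebral cortex of C57BL/6 mice. Per the labels, the right common carotid artery was tied at postnatal day 7 with 1 h of hypoxia, and cortex was taken at postnatal day 14, on the ligated side in the WMI group and on the same side in the Control group. The labels give an age of 2 weeks and repeat the surgery text for both samples. The study's methods give younger ages, a longer hypoxia and several mice per group, and whether each library pooled mice is not stated. The labels' protocol speaks of resuspended nuclei and the study of dissociated cells, so whether the levels and mitochondrial shares below are of nuclei or whole cells cannot be told apart. The study asked how this injury changes oligodendrocyte precursor cells (OPCs), premyelinating oligodendrocytes (pre-OLs) and mature oligodendrocytes (OLs). With 1 library per group no difference between conditions could be tested. The brackets below give exact 95% counting intervals, which do not cover variation between mice or libraries. Those of levels and ratios rest on UMIs pooled over cells, so they do not cover variation between cells either. A difference called beyond counting error below may thus still lie within the variation between cells.

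The Control library held 66470806 UMIs in 10288 barcodes and the WMI library 60568639 UMIs in 8354 barcodes. Filters on depth, gene number and mitochondrial share and the removal of predicted doublets left 8755 and 7571 cells, and 27 of their barcodes were shared between libraries. Clusters were made without the genes of the lists used here and named "-like" from marker genes. In the oligodendrocyte classes the leading genes went with the class names. Pdgfra, Cspg4 and Lhfpl3 marked the larger OPC-like cluster, Bcas1, Tcf7l2 and Itpr2 the pre-OL-like cluster, and Mog, Mag and Mobp the mature OL-like cluster. Only some excitatory neuron-like clusters had a listed excitatory marker among their leading genes (Cux2, Rorb or Tle4). There were 324 and 498 OPC-like, 148 and 424 pre-OL-like, 89 and 49 mature OL-like, 491 and 583 astrocyte-like, 3097 and 2775 excitatory neuron-like, 473 and 381 inhibitory neuron-like, and 424 and 1131 myeloid-like cells (Control and WMI). Unnamed clusters, 1 of them by a depth rule set after seeing the data, held 40.7% of the Control and 17.1% of the WMI library. RNA from outside the cell was present in every class. Levels are given as CPM, the UMIs of a gene scaled to 1000000 UMIs of all genes in the class. Slc17a7, a transporter of excitatory neurons, ranged from 79.7 to 211 CPM in the other 6 classes and was at 219.6 in Control and 229 in WMI excitatory neuron-like cells. It was higher still in 3 unnamed clusters, from 261 to 650.2 CPM. The 13 excitatory neuron markers together set this class little apart from astrocyte-like cells. They summed to 2702 and 2206 CPM in excitatory neuron-like and 2417 and 2316 in astrocyte-like cells (Control and WMI). No cell type lacks these enzymes, so their own background could not be set, and its part in the levels below was not tested. Median mitochondrial shares were higher in the WMI library in each of the 7 classes (0.250% to 0.818%, against 0.0420% to 0.175% in Control), and the part of this in the differences below was not tested.

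In the GRCm38 annotation, whose gene identifiers match those of the tables, Hmgcs1 lies at chr13:119690379-119708260 (+), Idi1 at chr13:8885501-8892451 (+), Fdps at chr3:89093588-89101959 (-), Fdft1 at chr14:63145150-63179578 (-), Sqle at chr15:59315077-59331192 (+), Cyp51 at chr5:4081145-4104746 (-) and Dhcr7 at chr7:143823145-143848410 (+). Fdps overlaps the same-strand gene Gm43738, and how far this overlap affected its count was not tested. Fdft1 overlaps Ctsb and Cyp51 overlaps Akap9 on the opposite strand, and Hmgcs1 and Idi1 overlap opposite-strand transcripts. Whether counting used strand is not given in the sources used here.

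Promoters are shown because SREBP2 is known to bind the sterol regulatory element (SRE) beside NF-Y and Sp1 sites. The part of such sites in any difference between the libraries was not tested. The RefSeq table (GRCm38.p6) held 6 start sites for 4 of the 7 genes: Hmgcs1, Idi1, Cyp51 and Dhcr7. The 250 bases before each start were searched on both strands for the letters TCACNCCAC (SRE), CCAAT (NF-Y) and GGGCGG (Sp1), which do not overlap in these stretches. Each line below runs 5′ to 3′ on the gene's strand, from shortly before the first match to shortly after the last, with matches in capitals. The places are chr13:119690104-119690342 for Hmgcs1, chr13:8885527-8885605 for Idi1, chr5:4104712-4104842 for Cyp51 and chr7:143830017-143830209 for Dhcr7, the farther downstream of the Dhcr7 starts with a match.
Hmgcs1: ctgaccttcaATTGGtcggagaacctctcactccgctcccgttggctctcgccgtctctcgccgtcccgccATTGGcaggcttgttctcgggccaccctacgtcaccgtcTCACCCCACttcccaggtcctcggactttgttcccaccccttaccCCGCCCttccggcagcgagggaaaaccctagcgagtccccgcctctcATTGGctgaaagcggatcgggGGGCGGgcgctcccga
Idi1: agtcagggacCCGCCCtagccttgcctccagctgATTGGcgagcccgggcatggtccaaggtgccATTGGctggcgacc
Cyp51: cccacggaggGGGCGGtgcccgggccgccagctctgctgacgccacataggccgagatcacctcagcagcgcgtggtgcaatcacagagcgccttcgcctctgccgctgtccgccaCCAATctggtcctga
Dhcr7: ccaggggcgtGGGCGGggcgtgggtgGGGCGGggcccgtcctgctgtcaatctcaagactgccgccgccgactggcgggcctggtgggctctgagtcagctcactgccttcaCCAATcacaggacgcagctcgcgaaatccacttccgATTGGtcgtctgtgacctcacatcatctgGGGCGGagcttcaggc

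The SRE letters occurred in 1 of the 6 windows, that of Hmgcs1, and in 1.05% of the 32851 windows of the whole table. CCAAT occurred in 4 of the 6 windows and in 33.8% of all windows. GGGCGG occurred in 5 of the 6 and in 32.7% of all. Both the SRE and the CCAAT letters stood in the Hmgcs1 window, as in 0.326% of all windows. These are letter matches, not measured binding.

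The summed level of the 7 genes was highest in mature OL-like cells of both libraries. In Control cells it was 126 CPM in OPC-like, 228 in pre-OL-like, 635 [579 to 695] in mature OL-like, 301 in astrocyte-like, 113 in excitatory neuron-like, 98.3 in inhibitory neuron-like and 149 in myeloid-like cells. In WMI cells it was 120.3 in OPC-like, 108 in pre-OL-like, 675 [604 to 753] in mature OL-like, 204 in astrocyte-like, 93.9 in excitatory neuron-like, 89.0 in inhibitory neuron-like and 102 in myeloid-like cells. Astrocyte-like cells came second in both. Pre-OL-like cells held the third place in Control and the fourth in WMI.

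**Figure D1:**
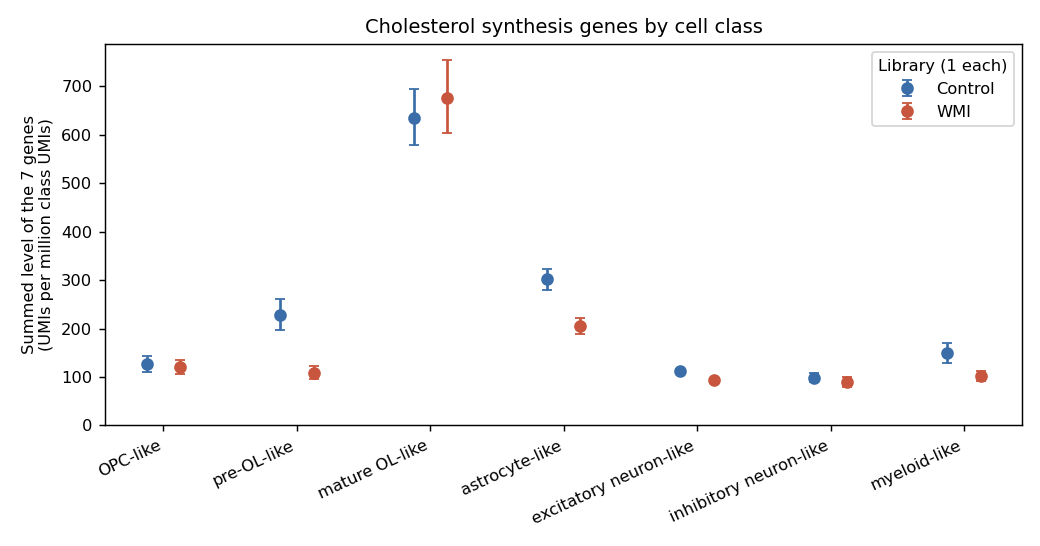
Summed level of the 7 genes in CPM (y axis) for each cell class (x axis) in the Control and WMI libraries. Points are single libraries and bars exact 95% Poisson intervals; mature OL-like cells lie at 635 and 675, and the pre-OL-like pair at 228 and 108 stands farthest apart among the other classes in fold.

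Neighbours in the Control order differed beyond counting error down to myeloid-like cells, and again from excitatory to inhibitory neuron-like cells. Myeloid-like against OPC-like and OPC-like against excitatory neuron-like cells did not. The WMI order was clear of counting error only for mature OL-like above astrocyte-like and astrocyte-like above OPC-like cells. From there down to inhibitory neuron-like cells, no neighbours differed beyond it. Mature OL-like cells exceeded excitatory neuron-like cells 5.63-fold in Control and 7.19-fold in WMI. All 7 genes were at least 1.5-fold higher there in both libraries, as were 17.8% of the 15172 genes with at least 100 UMIs. Astrocyte-like cells exceeded excitatory neuron-like cells 2.67-fold and 2.18-fold, with 6 of 7 genes past 1.5-fold in both libraries against 24.6% of all genes. The seventh was Dhcr7, at 2.29-fold in Control and 1.46-fold in WMI. Myeloid-like cells had none of the 7 past that fold over excitatory neuron-like cells in both libraries, against 30.8% of all genes, although Hmgcs1, Sqle and Fdps passed it in Control alone (1.51-fold, 1.58-fold and 1.52-fold). Mature OL-like cells exceeded astrocyte-like cells 2.11-fold in Control and 3.30-fold in WMI, with 5 of the 6 genes that had enough UMIs past 1.5-fold in both against 11.5% of all genes.

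Along the oligodendrocyte stages, the step from OPC-like to pre-OL-like cells was seen in the Control library. Summed genes were 1.81-fold higher in pre-OL-like than OPC-like cells of Control (log2 0.85 [0.57 to 1.13]), whereas in WMI the same ratio was 0.899 (log2 -0.15 [-0.40 to 0.10]). Thinning each cell to 1000 UMIs left 23 to 59 UMIs of the 7 genes per stage and library. The log2 ratios were then 0.13 in Control and -0.44 in WMI. The thinned Control ratio set 23 UMIs in pre-OL-like against 46 in OPC-like cells. That is too few to say whether the step differed from the unthinned one. None of the 4 genes with at least 100 UMIs in these stages was 1.5-fold higher in pre-OL-like cells of both libraries, against 8.73% of all genes. The step from pre-OL-like to mature OL-like cells was 2.79-fold in Control and 6.24-fold in WMI. It was at least 1.5-fold in both libraries for all 4 of those genes with enough UMIs, against 10.5% of all genes.

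Hmgcs1 makes HMG-CoA, an early intermediate of the pathway. Its Control level was 31.1 CPM in OPC-like, 62.1 in pre-OL-like, 241 in mature OL-like, 80.9 in astrocyte-like, 32.5 in excitatory neuron-like, 28.4 in inhibitory neuron-like and 49.0 in myeloid-like cells. The WMI level in the same order was 30.2, 24.5, 258, 56.1, 22.0, 23.4 and 22.7. WMI was lower than Control in 6 of the 7 classes and higher only in mature OL-like cells, where the log2 ratio was 0.10 [-0.24 to 0.44]. The lower levels lay beyond counting error in pre-OL-like cells (log2 -1.34 [-1.91 to -0.78]), myeloid-like cells (-1.11 [-1.58 to -0.63], and -0.61 within the cluster that held most Control cells), excitatory neuron-like cells (-0.56 [-0.70 to -0.43]) and astrocyte-like cells (-0.53 [-0.83 to -0.23]).

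Idi1 interconverts the activated isoprene units, and it gave few UMIs outside excitatory neuron-like cells. Across OPC-, pre-OL-, mature OL-, astrocyte-, excitatory neuron-, inhibitory neuron- and myeloid-like cells, its Control levels were 3.89, 3.39, 28.1, 14.2, 3.41, 1.89 and 2.16 CPM. Those in WMI were 6.52, 2.67, 33.6, 6.45, 2.52, 1.38 and 2.77. Mature OL-like cells were highest in both. Astrocyte-like cells of WMI were lower than those of Control (36 and 20 UMIs, log2 -1.14 [-2.01 to -0.31]). After thinning each cell to 1000 UMIs that ratio turned to log2 0.17, and that of excitatory neuron-like cells went from -0.44 to 1.74. Thinning left 150 and 115 UMIs of all 7 genes in astrocyte-like and 354 and 274 in excitatory neuron-like cells (Control and WMI). Thinned ratios of single genes, here and below, rest on a part of such counts. They are given without intervals, so their counting error is not shown. Its 3 and 6 UMIs in pre-OL-like cells allow no direction (log2 -0.34 [-2.57 to 2.29]).

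Fdps joins isoprenoids into farnesyl diphosphate, also the source of protein prenyl groups. Control levels in the same class order were 7.23, 18.1, 37.4, 17.4, 4.73, 3.15 and 7.20 CPM, and WMI levels 6.52, 4.45, 25.2, 12.6, 4.67, 3.31 and 5.55. The outstanding value was in pre-OL-like cells, where 16 Control and 10 WMI UMIs gave a log2 ratio of -2.02 [-3.32 to -0.79]. After thinning each cell to 1000 UMIs the ratio was -0.52, outside that unthinned interval. Only 23 Control and 37 WMI UMIs of all 7 genes were then left in these cells, too few to read a change from it. In the other 6 classes the interval of the ratio included 0.

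Fdft1, squalene synthase, commits farnesyl diphosphate to sterols. In Control it was at 27.8 CPM in OPC-like, 57.6 in pre-OL-like, 135 in mature OL-like, 78.5 in astrocyte-like, 25.1 in excitatory neuron-like, 16.6 in inhibitory neuron-like and 29.5 in myeloid-like cells. WMI values in that order were 20.8, 23.6, 153, 50.9, 19.2, 14.3 and 17.7. As for Hmgcs1, mature OL-like cells were the only class with the higher level in WMI, within counting error (log2 0.18 [-0.27 to 0.63]). Log2 ratios were -1.29 [-1.87 to -0.70] in pre-OL-like, -0.62 [-0.94 to -0.32] in astrocyte-like, -0.74 [-1.32 to -0.15] in myeloid-like (0.13 within the cluster that held most Control cells) and -0.38 [-0.54 to -0.24] in excitatory neuron-like cells. The pre-OL-like ratio went to -0.52 after thinning, again outside its unthinned interval and from the same few UMIs.

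Sqle, squalene epoxidase, is another control point of the pathway. Its Control levels in the same order were 21.1, 22.6, 77.5, 29.996, 14.6, 11.1 and 23.0 CPM, and its WMI levels were 22.8, 16.0, 58.7, 28.4, 15.0, 14.9 and 17.9. For Sqle the interval of the WMI to Control ratio included 0 in all 7 classes. Excitatory neuron-like cells gave the narrowest interval, at log2 0.04 [-0.14 to 0.22] from 509 and 488 UMIs, an interval that does not hold the -0.56 of Hmgcs1 in the same cells. After thinning each cell to 1000 UMIs the Sqle ratio there was -0.38, outside that unthinned interval. In pre-OL-like cells it went from -0.49 [-1.32 to 0.37] to -1.52 after thinning, again outside its unthinned interval. The latter rests on the few thinned UMIs given for Fdps.

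Cyp51 removes a methyl group from lanosterol, the first sterol of the pathway. Control levels were 23.4 CPM in OPC-like, 49.7 in pre-OL-like, 86.9 in mature OL-like, 53.3 in astrocyte-like, 20.7 in excitatory neuron-like, 25.4 in inhibitory neuron-like and 21.6 in myeloid-like cells. The WMI levels were 19.6, 24.5, 115, 31.6, 18.0, 19.0 and 21.7. It was lower in WMI beyond counting error in pre-OL-like (log2 -1.02 [-1.62 to -0.41]), astrocyte-like (-0.75 [-1.14 to -0.37]) and excitatory neuron-like cells (-0.21 [-0.37 to -0.05]), and at 0.41 [-0.14 to 0.95] in mature OL-like cells. The excitatory neuron-like value turned to 0.13 after thinning.

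Dhcr7 carries out the last step to cholesterol in a branch of the pathway. Its Control levels in the same order were 11.7, 14.7, 29.4, 26.8, 11.7, 11.8 and 16.6 CPM, and its WMI levels 13.9, 12.5, 31.5, 18.4, 12.6, 12.7 and 13.6. Only astrocyte-like cells had an interval below 0 (log2 -0.55 [-1.08 to -0.02], and -1.47 after thinning). Its mature OL-like level stood 2.51-fold and 2.50-fold above excitatory neuron-like cells, the smallest such ratio among the 7 genes in each library.

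**Figure D2:**
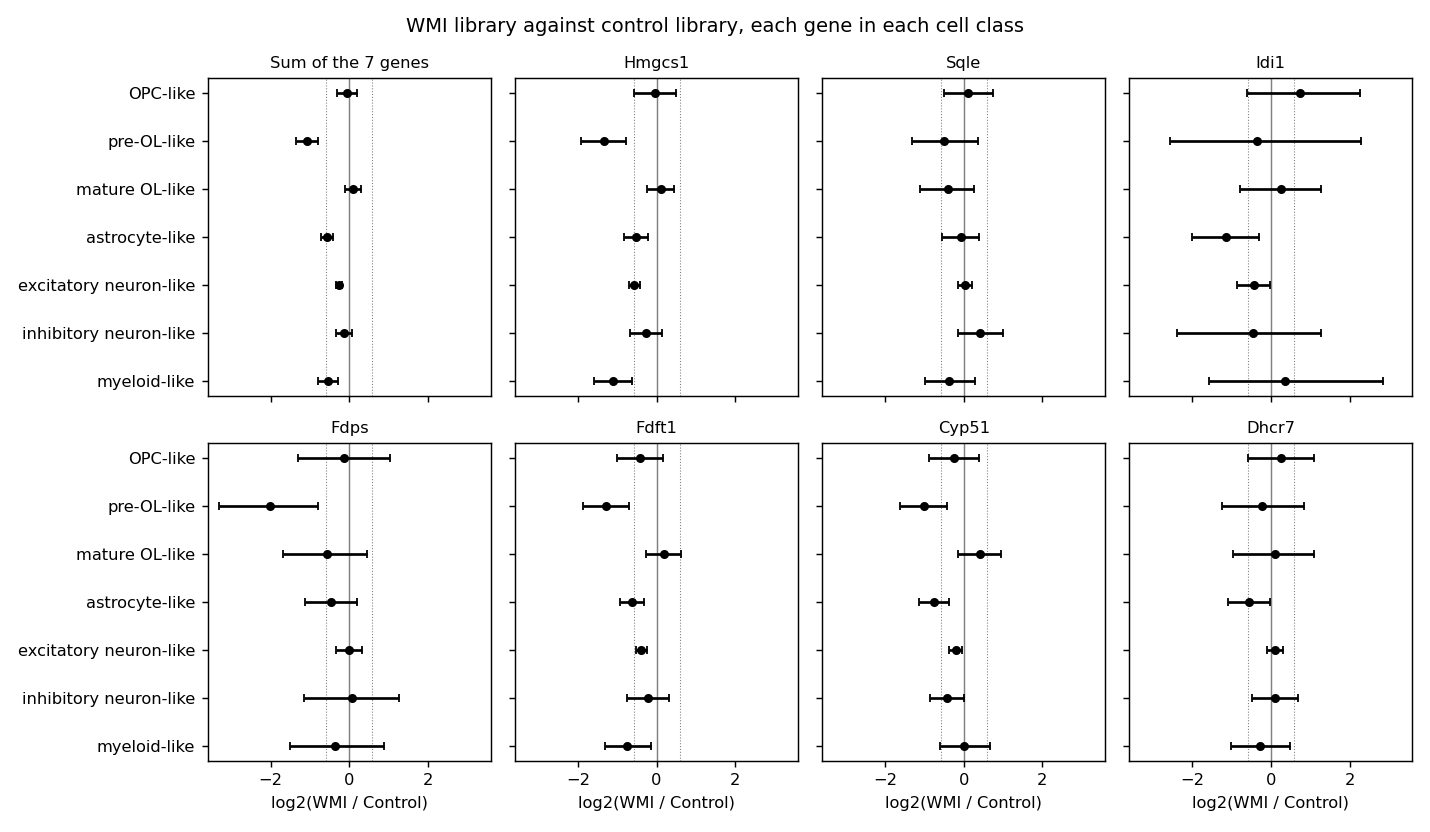
Log2 ratio of WMI to Control (x axis) for the sum and for each of the 7 genes in the 7 cell classes (rows). Points are ratios of 2 libraries, bars exact 95% counting intervals and dotted lines 1.5-fold; pre-OL-like cells lie farthest to the left for the sum (log2 -1.08), and the mature OL-like sum lies at 0.09.

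Summed over the 7 genes, WMI pre-OL-like cells were 2.11-fold lower than Control ones (log2 -1.08 [-1.35 to -0.80], 202 and 243 UMIs). The log2 ratio was -0.56 [-0.71 to -0.41] in astrocyte-like, -0.55 [-0.79 to -0.30] in myeloid-like and -0.26 [-0.33 to -0.20] in excitatory neuron-like cells. In OPC-like (-0.07 [-0.32 to 0.19]), inhibitory neuron-like (-0.14 [-0.35 to 0.07]) and mature OL-like cells (0.09 [-0.12 to 0.30]) the libraries did not differ beyond counting error.

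Counts against all genes used those with at least 100 UMIs over both libraries in a class and a fold of 1.5. The genes at least that much lower in WMI were 0 of 2 in OPC-like cells (2.47% of all genes), 2 of 2 in pre-OL-like (4.5%), 0 of 3 in mature OL-like (13.6%), 2 of 5 in astrocyte-like (5.79%), 0 of 7 in excitatory neuron-like (4.89%), 0 of 5 in inhibitory neuron-like (3.21%) and 2 of 4 in myeloid-like cells (6.87%). None was 1.5-fold higher in any class, where the shares of all genes were 4.76%, 6.58%, 7.01%, 12.1%, 6.77%, 5.31% and 16.2% in the same order. The lower genes were Hmgcs1 and Fdft1 in pre-OL-like and myeloid-like cells, and Fdft1 and Cyp51 in astrocyte-like cells. Over the genes with enough UMIs the median log2 ratio was -1.31 in pre-OL-like and -0.55 in astrocyte-like cells, against 0.05 and 0.10 over all genes. Lowering the minimum to 20 UMIs, a choice made after seeing the data, put 4 of 6 genes that then had enough UMIs at least 1.5-fold lower in pre-OL-like cells (Hmgcs1, Fdps, Fdft1 and Cyp51), against 9.55% of 10880 genes.

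Within the pre-OL-like class, finer clustering gave a pair of clusters, and the one with the higher level of Mag, a myelin protein gene, is called later. The earlier one held 94 Control and 312 WMI cells, with summed levels of 131 and 91.3 CPM (log2 -0.52 [-0.95 to -0.08]). The later one held 54 and 112 cells, with levels of 360.5 and 144 (log2 -1.33 [-1.71 to -0.95]). Control was higher in both, and by more in the later cluster. The cells of the later cluster also differed between libraries in stage markers, given below. In that later cluster Hmgcs1 was at 93.5 and 38.7, Fdps at 40.1 and 4.14, Fdft1 at 96.1 and 34.5, and Cyp51 at 74.8 and 31.7 CPM (Control and WMI).

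Maturation markers differed between the libraries as well, but not all in the same direction. Over the pre-OL-like class the 13 mature OL markers summed to 4987 CPM in Control and 4073 in WMI, with 1 marker at 0 in each. Mobp, a gene of compact myelin, was at 209 and 23.6, Mag at 313 and 159, and Gpr17, a receptor of the premyelinating stage, at 113 and 315. The 14 pre-OL markers, Gpr17 included, summed to 18081 and 17537 CPM, and Tcf7l2 of that list was at 2064 and 1704. Summed mature OL markers were higher in WMI in the earlier cluster (2338 and 2625) and lower in the later one (8604 and 7116). In the 114 Control and 396 WMI pre-OL-like cells without a Mobp UMI, the summed level of the 7 genes was 156 and 101 CPM (log2 -0.63 [-0.98 to -0.27]). Restricting the later cluster to such cells (32 and 99) gave 252 and 120.4 (log2 -1.07 [-1.59 to -0.53]). Over all cells of the later cluster, Mobp was at 462 and 49.7 CPM, Mag at 633 and 363, and Gpr17 at 48.1 and 144. The 12 OPC markers summed there to 9496 and 14790. The later cluster is thus not a comparison of cells with like stage markers. The part of stage in the difference, within the class or within either cluster, was not tested.

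UMIs of the 7 genes in pre-OL-like cells came from 59.5% of Control and 37.5% of WMI cells. Of the Control cells 15.5% had 3 or more UMIs of the 7 genes and 40.5% had none, whereas 2.36% and 62.5% of WMI cells did, at median depths of 5357 and 4672.5 UMIs per cell. The 5 highest cells held 47 of 202 Control and 33 of 243 WMI UMIs. Without them the summed levels were 184 and 95.3 CPM.

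**Figure D3:**
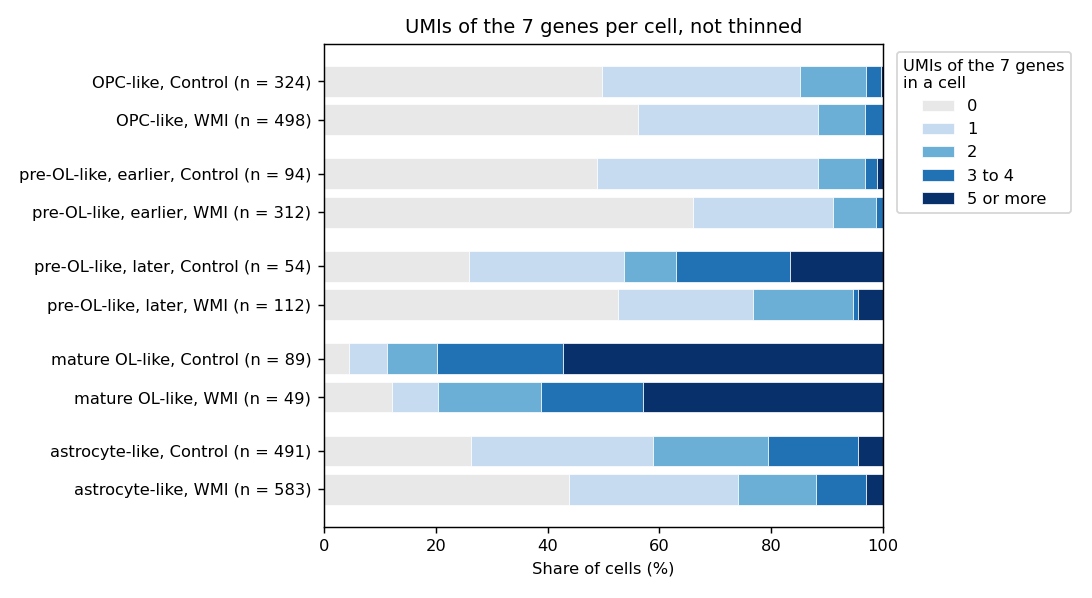
Share of cells in percent (x axis) by their number of UMIs of the 7 genes, without thinning, for oligodendrocyte stages and astrocyte-like cells of each library (rows). Among later pre-OL-like cells 25.9% (Control) and 52.7% (WMI) had none, and 57.3% and 42.9% of mature OL-like cells had 5 or more.

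After each cell was thinned to 1000 UMIs, 13.5% of Control pre-OL-like cells [8.45% to 20.1%] and 8.49% of WMI ones [6.02% to 11.6%] had a UMI of any of the 7 genes. The intervals overlapped, and only 23 and 37 of their UMIs were left. Unthinned shares were 59.5% and 37.5%. In astrocyte-like cells the thinned shares were 26.5% [22.6% to 30.6%] and 17.8% [14.8% to 21.2%], and unthinned ones 73.7% and 56.1% at median depths of 4855 and 4853. In mature OL-like cells they were 37.1% [27.1% to 48.0%] and 40.8% [27.0% to 55.8%] thinned, and 95.5% and 87.8% unthinned at median depths of 8122 and 8602. Thinning left out no cell, since every kept cell had at least 1000 UMIs.

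Mature OL-like cells rested on 89 Control and 49 WMI cells. Their Control range reached 19 UMIs of the 7 genes in a cell, and 1 WMI cell reached 46. The 5 highest WMI cells held 126 of 322 UMIs, and without the 5 highest of each library the levels were 589 and 509 CPM, so the direction turned. In this class the 14 pre-OL markers summed to 10145 CPM in WMI and 5414.5 in Control, with none at 0 in either library. No direction is given for these cells.

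Astrocyte-like cells were lower in WMI for all 7 genes, from log2 -0.08 for Sqle to -1.14 for Idi1. The median over the 13738 genes with at least 20 UMIs in this class was 0.12. For Hmgcs1, Idi1, Fdft1, Cyp51 and Dhcr7 the interval lay below 0, and for Sqle and Fdps it included 0. Idi1 stood at 0.17 after thinning. The summed level of these cells was 289 and 192 CPM without the 5 highest cells. The 12 astrocyte markers together were at 21248 CPM in Control and 16025 in WMI (log2 -0.41), with none at 0. Gfap, an intermediate filament gene, was at 63.2 and 762, and the 17 myeloid markers at 204 and 737. Gfap and the summed myeloid markers were also higher in WMI in each other class. The part of these differences in the result was not tested.

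Excitatory neuron-like cells fell into 13 clusters, and the summed level was lower in WMI in each of them, from log2 -0.54 to -0.01. In 6 of the 13 the interval lay below 0, and in 0 above it. Control levels spanned 92.9 to 156 CPM over the clusters and WMI levels 64.2 to 118. In the unthinned cells the members differed, with Hmgcs1, Idi1, Fdft1 and Cyp51 below 0 beyond counting error and Sqle, Fdps and Dhcr7 between log2 -0.02 and 0.10. After thinning each cell to 1000 UMIs, Sqle stood at -0.38, Dhcr7 at 0.78, Idi1 at 1.74 and Cyp51 at 0.13. Counting the 2 low-depth, unnamed clusters that came mostly from Control as excitatory neuron-like, a choice made after seeing the data, gave log2 -0.51 for the sum and -0.24 for Dhcr7. Those clusters had summed levels of 183 and 295 CPM in Control, and Slc17a7 levels of 292 and 650.2.

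**Figure D4:**
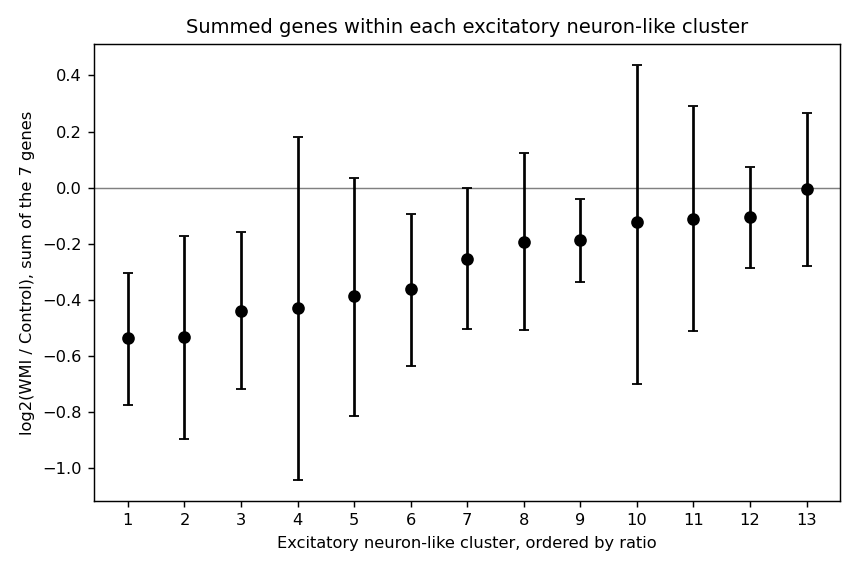
Log2 ratio of WMI to Control for the summed 7 genes (y axis) within each of 13 excitatory neuron-like clusters, ordered by ratio (x axis). Bars are exact 95% counting intervals; all points lie below 0, from -0.54 to -0.01.

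Different clusters held most of the myeloid-like cells in each library. A first cluster held 17 Control and 1066 WMI cells, with the summed genes at 115 [46.1 to 236] and 99.6 [89.7 to 110.3] CPM. The other held 407 and 65 cells, with 151 [130.5 to 173] and 132 [92.8 to 182]. Within the clusters the log2 ratios were -0.20 [-1.26 to 1.12] and -0.19 [-0.74 to 0.32], neither beyond counting error. They rest on 7 Control UMIs in the first cluster and 37 WMI UMIs in the other. Both intervals also hold the class difference of -0.55, so they cannot show whether it was present within the clusters. In neuroblast-like cells (72 and 230) the summed level was 194 and 95.4 CPM (log2 -1.02 [-1.49 to -0.55]).

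Many WMI cells held Xist or Tsix UMIs and nearly no Control cell did (15 of 3097 excitatory neuron-like cells), and the labels do not give the sex of the mice. Among WMI pre-OL-like cells the summed level was 96.6 [81.5 to 114] CPM in the 275 with such a UMI and 132 [107 to 160.4] in the 149 without. Within the later pre-OL-like cluster these levels were 114 [85.0 to 151] and 188 [141 to 245]. In mature OL-like cells they were 600 [518 to 691] in 35 cells and 827 [692 to 982] in 14. The corresponding levels were 208 and 195 in astrocyte-like and 93.7 and 94.4 in excitatory neuron-like cells. They were 116 and 127 in OPC-like, 84.5 and 97.6 in inhibitory neuron-like and 106 and 93.3 in myeloid-like cells. Using only WMI cells without these UMIs, the log2 ratio to Control was -0.79 in pre-OL-like cells.

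The other 14 enzymes of the pathway list, which do not include the 7, were read from the same cells. Their summed levels were 248 and 209 CPM in OPC-like (log2 -0.25 [-0.43 to -0.06]), 359 and 199.9 in pre-OL-like (-0.84 [-1.05 to -0.63]), 781 and 879 in mature OL-like (0.17 [-0.01 to 0.35]) and 539.5 and 367 in astrocyte-like cells (-0.56 [-0.67 to -0.44]). Excitatory neuron-like cells had a log2 ratio of -0.17 [-0.22 to -0.12], inhibitory neuron-like cells -0.15 [-0.31 to 0.01] and myeloid-like cells -0.42 [-0.61 to -0.23]. The classes that stood low for the 7 genes also stood low here, and so did OPC-like cells. These values come from the same cells and from a list chosen with earlier results known, so they are not separate evidence. For the 14 enzymes, no values within the myeloid-like clusters are given.

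Over the whole list of 21 enzymes, the 7 included, 3 of 4 with at least 100 UMIs were 1.5-fold lower in WMI pre-OL-like cells, 6 of 14 in astrocyte-like, 3 of 7 in myeloid-like, 1 of 21 in excitatory neuron-like, 1 of 10 in inhibitory neuron-like, and none of 5 in OPC-like or of 6 in mature OL-like cells. Shares of all genes in that order were 4.5%, 5.79%, 6.87%, 4.89%, 3.21%, 2.47% and 13.6%, so the excitatory neuron-like count lay at the share of all genes and the inhibitory neuron-like count was a single gene. Those single genes were Mvk, a kinase of mevalonate, in excitatory neuron-like cells (log2 -0.65 [-0.99 to -0.32]) and Pmvk, the next kinase, in inhibitory neuron-like cells (-0.59 [-1.21 to 0.01]). In myeloid-like cells Msmo1 joined Hmgcs1 and Fdft1. Different clusters held most of these cells in each library. Within the cluster that held most Control cells, Hmgcs1 was at log2 -0.61 [-1.80 to 0.40] and Fdft1 at 0.13 [-1.11 to 1.20]. Median log2 ratios of the list were -1.14 in pre-OL-like, -0.54 in astrocyte-like and 0.30 in mature OL-like cells. With at least 20 UMIs, 13 of 19 were 1.5-fold lower in pre-OL-like cells, against 9.55% of all genes. All 19 lay below 0, where the median log2 ratio over all genes with that many UMIs was 0.06. Lss, which closes the sterol ring, was at 26.0 and 4.01 CPM there (23 and 9 UMIs, log2 -2.70 [-3.99 to -1.53]).

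Msmo1, a sterol methyl oxidase, was at 55.3 and 27.6 CPM in pre-OL-like cells (log2 -1.003 [-1.57 to -0.43]), at 147 and 212 in mature OL-like (0.53 [0.12 to 0.93]) and at 184 and 113 in astrocyte-like cells (-0.71 [-0.91 to -0.51]). Nsdhl, a sterol dehydrogenase, was at 60.8 and 40.3 in astrocyte-like cells (log2 -0.59 [-0.95 to -0.24]). Nsdhl was thus lower in WMI astrocyte-like cells too. The mature OL-like values of Msmo1 include the 5 highest cells named above.

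**Figure D5:**
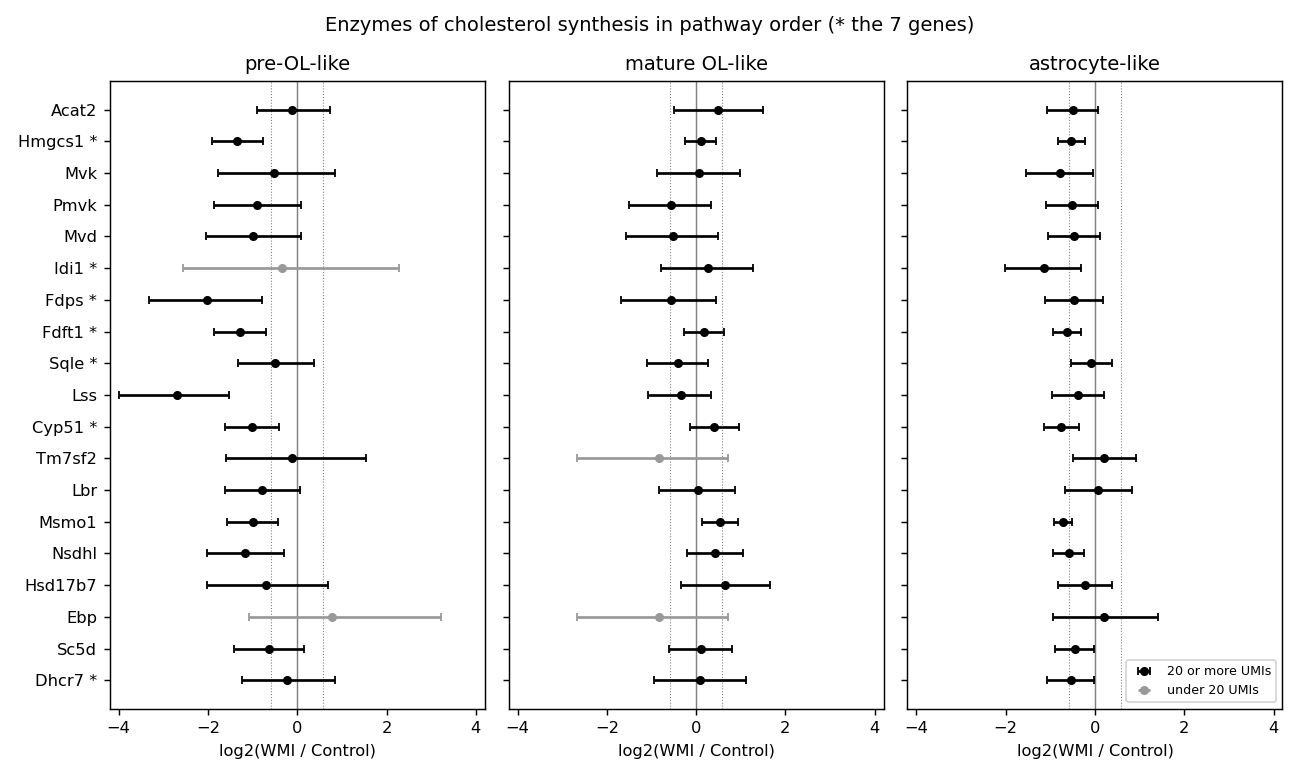
Log2 ratio of WMI to Control (x axis) for enzymes of the list in pathway order (rows) in pre-OL-like, mature OL-like and astrocyte-like cells, with exact 95% counting intervals as bars and dotted lines at 1.5-fold. Genes with under 20 UMIs are grey; the black points in pre-OL-like cells all lie left of 0, and Msmo1 lies at -1.003 there and at 0.53 in mature OL-like cells.

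Among the 10 regulators, Srebf2 was lower in WMI pre-OL-like (62.1 and 38.7 CPM, log2 -0.68 [-1.18 to -0.17]) and excitatory neuron-like cells (65.1 and 50.5, log2 -0.37 [-0.46 to -0.28]). In mature OL-like cells it was at 142 and 159 (log2 0.17 [-0.27 to 0.61]). With at least 100 UMIs, 1 of 4 regulators was 1.5-fold lower in pre-OL-like cells (4.5% of all genes), and 3 of 8 were 1.5-fold higher in astrocyte-like cells (12.1% of all genes). Those 3 were Srebf1, the SREBP of fatty acid genes (10.7 and 27.1, log2 1.35 [0.70 to 2.03]), Insig2, which holds SREBPs back (29.6 and 45.8, log2 0.63 [0.22 to 1.05]), and Mylip, a ubiquitin ligase (22.9 and 38.0, log2 0.73 [0.27 to 1.21]). Mylip was also 1.5-fold higher in inhibitory neuron-like and myeloid-like cells, the only regulator so called in those classes, where 5.31% and 16.2% of all genes were.

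Among the 14 genes of uptake, transport, storage and turnover, the exporter gene Abca1 and Apoe, the main lipid carrier of the brain, were higher in WMI. Abca1 was higher in all 7 classes, with log2 1.26 [0.84 to 1.69] in pre-OL-like, 1.26 [1.12 to 1.41] in astrocyte-like and 2.93 [2.76 to 3.10] in myeloid-like cells. The 17 myeloid markers together were also higher in WMI in all 7 classes, by log2 1.90 in pre-OL-like and 1.85 in astrocyte-like cells. How far RNA from outside the cell sets the Abca1 values was not tested.

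Apoe had levels of 176 and 4851 CPM in myeloid-like and 449.5 and 1635 in astrocyte-like cells. It also stood at 80.1 and 803 in pre-OL-like and 44.3 and 453 in excitatory neuron-like cells, so it was also higher in WMI in cells that are not known as its main makers. How far RNA from outside the cell sets these values was not tested. In this list the counts of genes with at least 100 UMIs that were 1.5-fold lower and higher in WMI were 0 and 2 of 4 in pre-OL-like, 1 and 2 of 3 in mature OL-like, 1 and 3 of 10 in astrocyte-like, 0 and 3 of 8 in OPC-like, 1 and 3 of 12 in excitatory neuron-like, 0 and 3 of 8 in inhibitory neuron-like, and 0 and 5 of 9 in myeloid-like cells. The shares of all genes lower and higher were 4.5% and 6.58%, 13.6% and 7.01%, 5.79% and 12.1%, 2.47% and 4.76%, 4.89% and 6.77%, 3.21% and 5.31%, and 6.87% and 16.2% in that order. Each count of lower genes was thus at most a single gene. Among the lower ones were Apod, a lipocalin, in mature OL-like and Stard4, a sterol transfer protein, in excitatory neuron-like cells. Among the higher ones besides Apoe and Abca1 were Npc2, a lysosomal sterol carrier, in 5 classes, and Abcg1, an exporter (log2 3.15 [2.70 to 3.65]), and Soat1, which esterifies cholesterol for storage (1.65 [1.23 to 2.09]), in myeloid-like cells. All myeloid-like values of this list compare libraries whose cells came mostly from different clusters. Abca1 was a leading gene of the cluster that held most WMI cells. The part of cluster in these myeloid-like differences was not tested.

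Fatty acid synthesis, the other large lipid pathway, did not move as 1 block. Acss2, which makes acetyl-CoA from acetate, was lower in WMI in pre-OL-like (68.9 and 29.8 CPM, log2 -1.21 [-1.73 to -0.68]), mature OL-like (321 and 141, -1.19 [-1.60 to -0.79]) and astrocyte-like cells (157 and 80.0, -0.97 [-1.21 to -0.74]). Scd2, a desaturase of myelinating glia, was higher in the same classes, at log2 0.44 [0.12 to 0.77], 0.93 [0.56 to 1.31] and 0.40 [0.21 to 0.60]. Of the 8 genes with at least 100 UMIs, 1 of 5 was 1.5-fold lower and none higher in pre-OL-like cells, 2 of 4 lower and 1 higher in mature OL-like cells, 1 of 7 lower and none higher in astrocyte-like cells, and 1 of 6 lower and 1 higher in OPC-like cells. Of all genes 4.5% were lower and 6.58% higher in pre-OL-like, 13.6% and 7.01% in mature OL-like, 5.79% and 12.1% in astrocyte-like, and 2.47% and 4.76% in OPC-like cells, and apart from the 2 lower genes of mature OL-like cells each count was of a single gene or none. In OPC-like cells these were Me1, lower (log2 -0.66 [-1.09 to -0.23]), and Scd2, higher (0.72 [0.43 to 1.02]). None of 7, 6 and 5 passed either way in excitatory neuron-like, inhibitory neuron-like and myeloid-like cells.

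Likeness of profiles was described over the 14 points of 7 classes in 2 libraries, as Pearson's r of log2(level + 1). The points share 2 libraries and their depth, and mature OL-like cells are the extreme points. Each of the 7 genes had an r above 0.9 with the sum of the other 6, from 0.92 for Idi1 to 0.98 for Hmgcs1. Among listed genes outside the 7, Hsd17b7 and Sc5d reached 0.96 each and Pmvk 0.95. Ebp reached 0.47, the lowest of the 21 enzymes. Among 9001 genes outside the lists with at least 1000 UMIs, the 5 most like the sum were Add1 (0.96), Usp6nl (0.96), Slc48a1 (0.94), Sept4 (0.93) and Tspan9 (0.92).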

How the data were processed

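The deposited values were UMI counts per gene and barcode, made by the authors with Cell Ranger 6.1.1. The submitters' processing notes name Seurat and the build mm9, but all gene identifiers match GENCODE M21 (GRCm38), whose coordinates are given. Cells with at least 1000 UMIs, at least 500 genes and at most 10% mitochondrial UMIs were kept. Predicted doublets were removed, 785 in Control and 542 in WMI, by comparison with simulated doublets at 0.8% per 1000 barcodes. Cells were integrated and clustered with Seurat 5.3.0 (2000 features, 30 dimensions, resolution 0.8). Clusters with under 3 markers or with leading genes of another class, and clusters of low depth with no leading marker, stayed unnamed. Counts were summed per class and library and scaled to 1000000 UMIs of the class (CPM). Intervals were exact Poisson for levels, exact conditional binomial for ratios and Clopper-Pearson for shares, at 95%. No test between conditions was run, since each group had 1 library. The text names the 7 genes in every class, listed genes with at least 100 UMIs (of the enzymes any, of the rest those past 1.5-fold) and the 5 genes of most like profile. Values of named genes in further classes, and Lss in pre-OL-like cells, were chosen after their values were seen. Some listed genes are not reported here. The 7 genes and the 4 lists (53 genes in all) were chosen with earlier results of these data known. Ratios and intervals were checked on simulated Poisson counts, which hold no variation between cells beyond counting error. Thinning was checked on real Control barcodes, only for leaving 1000 UMIs in each. Promoters were those of the RefSeq table.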

Additional observations from a re-analysis of the deposited data

How the results depend on the processing

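No paired analysis was possible because each group had 1 library. Of 78 values of the summed WMI to Control log2 ratio under other settings, 70 stayed within the counting interval of the reported value, as did 64 of 72 ratios between classes. The ratio moved to -0.79 in pre-OL-like and 0.38 in mature OL-like cells when only WMI cells without Xist or Tsix were used, to 0.34 in inhibitory neuron-like cells after thinning to 1000 UMIs, and to -0.19 in myeloid-like cells without the cluster mostly of 1 library. Settings chosen after seeing the data moved it to -0.63 in pre-OL-like cells without a Mobp UMI, -0.21 in mature OL-like cells without the 5 highest cells, -0.51 in excitatory neuron-like cells with the unnamed Control clusters, and -0.20 in myeloid-like cells with clusters weighed alike. After thinning, log2 ratios between classes (Control and WMI) were 0.13 and -0.44 for pre-OL-like to OPC-like and 1.82 and 2.90 for mature OL-like to pre-OL-like cells. In Control alone they were 1.96 for mature OL-like to OPC-like and 2.27 for mature OL-like to excitatory neuron-like cells. Mature OL-like to excitatory neuron-like cells of WMI stood at 2.66 with cells weighed alike, and astrocyte-like to excitatory neuron-like cells of Control at 1.24 with doublets kept. Of the 7 genes, the number 1.5-fold lower in pre-OL-like cells went from 2 to 0 with at least 300 UMIs and to 4 with at least 20, and in astrocyte-like cells from 2 to 1 with at least 300 and to 0 at 2-fold. Of the 21 enzymes it went from 3 to 0 and 13 in pre-OL-like cells, and from 6 to 3 and 0 in astrocyte-like cells, under the same settings. Thinning to 2000 in place of 1000 UMIs gave shares of 31.5% and 18.1% of pre-OL-like cells with a UMI of the 7 genes, and no thinning 59.5% and 37.5%. Of 533 values for single genes 500 stayed within the counting interval, 29 lay outside it and 4 changed sign against a called value. Among the 29, Fdps and Fdft1 in pre-OL-like cells stood at -0.52 each, Dhcr7 in astrocyte-like cells at -1.47 and Hmgcs1 in OPC-like cells at -1.49, all after thinning. After thinning, Idi1 stood at 0.17 in astrocyte-like and 1.74 in excitatory neuron-like cells and Cyp51 at 0.13 in excitatory neuron-like cells, and Fdft1 stood at 0.13 in myeloid-like cells without the cluster mostly of 1 library. The cause was not tested. Depth limits the thinned values, which rest on 23 and 37 UMIs of the 7 genes in pre-OL-like cells, and single genes under 20 UMIs in a class.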
